A study of Mus musculus with 4 samples.

Results

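Non-classical monocytes were described here within a single-cell RNA-seq dataset of mouse lung tumors. These are the patrolling monocytes of the blood, which crawl along the inner wall of small vessels, and the lung holds many of them in its capillary bed. They arise from classical Ly6C-high monocytes through a conversion that needs the nuclear receptor Nr4a1, they depend on signals through the fractalkine receptor Cx3cr1 and the colony-stimulating factor receptor Csf1r, and they are known for scavenging debris at the vessel wall. Classical monocytes instead leave the blood for inflamed tissue through the chemokine receptor Ccr2, and there they become macrophages or cells that resemble dendritic cells. The members were selected on raw counts of unique molecular identifiers (UMIs, each 1 captured transcript). A cell needed at least 3 UMIs summed over Treml4, Ace, Cd300e and Adgre4, which are called the panel. It also needed at least 1 UMI of Csf1r, at most 3 UMIs of the complement genes C1qa, C1qb and C1qc, and none of the T-cell genes Cd3d, Cd3e and Cd3g or of the endothelial genes Cdh5 and Cldn5. This rule found 191 cells among the 19892 cells with at least 200 detected genes and at most 13.4% of their UMIs in mitochondrial genes, a share of 0.960% (95% exact Clopper-Pearson interval 0.829 to 1.11%). Since the rule used measured values, the levels of these 13 genes are a description of the choice and not a result.

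Tumors were induced by intratracheal Lenti-Cre and grew for 16 weeks in 4 female mice. All 4 mice carried a Cre-dependent tdTomato reporter at Rosa26, and Lkb1XTR/XTR, an allele in which Cre turns on a gene trap that silences Lkb1 (gene symbol Stk11). The 2 Restored mice also carried the tamoxifen-activated recombinase FLPo-ERT2, which removes the trap, opposite the reporter (Rosa26LSL-tdTomato/FLPo-ERT2), and the 2 Non-Restored mice had the reporter alone (Rosa26LSL-tdTomato). The labels give tamoxifen in 4 mg doses over 2 weeks for all 4 mice. Viable (DAPI-negative) cells of microdissected tumors were sorted without a lineage gate, so cells in the tumor vessels and in the tissue cannot be told apart. FLPo-ERT2 at Rosa26 is not limited to tumor cells, whereas the Lkb1 trap and tdTomato should be switched only where Lenti-Cre acted. The paper reports less Lkb1 mRNA and protein in several tissues of Lkb1XTR/XTR mice than of wild-type mice. It also reports that taking out the trap raised Lkb1 in every cell compartment of its single-cell data. The counts of the 4 mice formed 1 matrix, and no file used here says which mouse a cell came from. Restored and Non-Restored non-classical monocytes therefore cannot be told apart, the matrix counts as 1 sample without replicates, and no test and no p-value is given. Barcodes shared between libraries were not analysed here.

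The 191 cells held 640427 UMIs, with a lowest value of 690, a median of 2641 and a highest value of 17172 UMIs per cell, and a median of 1210 genes and 2.68% mitochondrial UMIs. They were set beside 189 classical monocytes, selected by at least 3 UMIs summed over Ly6c2, Ccr2 and F13a1, the same Csf1r, C1q, Cd3, Cdh5 and Cldn5 criteria, and no UMI of the panel, Siglech or Flt3. Their total was 685975 UMIs, and a median classical monocyte had 3262 UMIs in 1252 genes. The 19701 other cells of all kinds had a median of 1987 UMIs, and 1895 macrophages with at least 10 C1q UMIs, which served as a further reference, had a median of 4385 UMIs. Levels are given in CPM (counts-per-million), the summed UMIs of a gene in a group scaled to the UMI total of that group, followed where useful by an exact Poisson 95% interval. Differences are log2 ratios of (CPM + 10), which understate the change of low genes, and a gene was compared where the mean of both groups reached 20 CPM. All intervals cover counting error only and leave out the spread between mice, and those of CPM also leave out the spread between cells. The median of all genes compared lay at 0.20 on this log2 scale against classical monocytes, so differences are to be read against that shift.

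The panel genes were present in most members in combination. Treml4, a receptor of the TREM family, stood at 387 (340.5 to 439) CPM in non-classical monocytes and 4.62 CPM in all other cells. Ace, the angiotensin-converting enzyme, stood at 657 (596 to 723) CPM against 104 CPM, and endothelial cells are known to express it as well. Cd300e, an activating receptor of myeloid cells, was at 214 (179.6 to 253) CPM against 1.55 CPM, and Adgre4, an adhesion receptor related to F4/80, at 342 (298 to 390.4) CPM against 3.97 CPM. These 4 levels follow from the rule. A measure that the rule leaves free is the presence of each panel gene in cells selected by the other 3. Among 149 cells selected without Treml4, 57.0% (48.7 to 65.1%) held a Treml4 UMI, compared with 1.38% of the cells not selected. The same share was 82.1% (73.4 to 88.8%) of 106 cells for Ace against 11.1%, 34.7% (27.5 to 42.5%) of 167 cells for Cd300e against 0.497%, and 57.9% (49.8 to 65.6%) of 159 cells for Adgre4 against 1.10%. Each of the 4 genes was thus frequent in cells chosen without it, and in each case the 95% intervals of the shares did not overlap.

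Promoter windows are shown for the panel genes Treml4 and Adgre4 and for Fcgr4, an Fc receptor gene known from these cells that the rule did not use. Each window runs from 250 bases before to 50 bases after the annotated start of the gene in RefSeq, build GRCm38.p6. The capitals mark the letters GAGGAA or their reverse complement TTCCTC, the core bound by PU.1 (gene symbol Spi1) and other ETS factors of myeloid cells, and TTNNGCAA or its reverse complement, a consensus of the C/EBP factors. In Adgre4, the earlier capitals are the C/EBP letters and the later ones the PU box.
Treml4, chr17:48264045-48264344, plus strand: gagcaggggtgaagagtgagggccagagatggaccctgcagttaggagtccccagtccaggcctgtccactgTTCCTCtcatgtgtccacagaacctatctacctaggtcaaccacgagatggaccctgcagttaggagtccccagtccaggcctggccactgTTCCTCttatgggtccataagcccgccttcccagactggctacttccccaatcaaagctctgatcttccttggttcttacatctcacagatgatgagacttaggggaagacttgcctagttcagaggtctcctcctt
Adgre4, chr17:55749734-55750033, plus strand: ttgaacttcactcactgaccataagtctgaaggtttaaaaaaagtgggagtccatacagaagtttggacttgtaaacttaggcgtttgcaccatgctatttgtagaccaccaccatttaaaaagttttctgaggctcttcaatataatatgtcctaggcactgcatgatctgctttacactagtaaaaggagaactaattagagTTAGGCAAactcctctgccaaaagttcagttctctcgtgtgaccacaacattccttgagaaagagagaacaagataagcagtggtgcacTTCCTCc
Fcgr4, chr1:171018676-171018975, plus strand: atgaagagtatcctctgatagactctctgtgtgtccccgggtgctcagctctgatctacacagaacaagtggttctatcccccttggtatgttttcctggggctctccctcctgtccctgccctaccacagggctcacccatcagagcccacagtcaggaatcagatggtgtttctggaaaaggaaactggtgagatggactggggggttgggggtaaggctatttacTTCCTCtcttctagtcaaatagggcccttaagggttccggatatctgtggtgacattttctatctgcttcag
The Treml4 window held the PU box letters at 178 and at 87 bases before the start, each shortly after a copy of a 40-base direct repeat, and a direct repeat of at least this length was found in 0.341% of all 32851 windows. The Fcgr4 window held it 22 bases before the start. Of the 29 panel genes and genes of the non-classical list described below, 22 matched the table by symbol, with 24 windows in all. The PU box was in 9 of these 24 windows (37.5%), namely those of Ace, Adgre4, Ceacam1, Clec4a1, Clec4a3, Fcgr4, Pglyrp1, Pou2f2 and Treml4, and in 28.3% of all windows. The C/EBP letters were in the windows of Adgre4 and Ear2 and in 10.8% of all windows. The letters AAAGGTCA, which Nr4a receptors bind as monomers, and the octamer ATTTGCAT, bound by Pou2f2, were in 0 of the 24 windows and in 1.51% and 1.74% of all windows, searched on both strands. These matches are a description of letters and not of bound sites.

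The rule cut through a falling tail of panel UMIs. Of 1873 cells that met every other criterion, 1351 held no panel UMI, 243 held 1, 88 held 2, 64 held 3 and 31 held 4, and the median among members was 5 with a highest value of 21. The panel was spread over several genes, since 170 members (89.0%) carried 2 or more of the 4 genes and 32 carried all of them, while Ace was the only one in 16. Spn, which encodes the sialophorin CD43 used to sort non-classical monocytes, was at 101 CPM in the 88 cells just outside the rule, 288 CPM in the 64 cells just inside it and 319 CPM in the 31 cells with 4 panel UMIs. Itgal, the integrin chain of LFA-1, followed the same order at 300.4, 707 and 741 CPM. So did Nr4a1, Pou2f2, Pglyrp1, Gngt2 and Cx3cr1. The classical genes Ly6c2 (42.9, 115 and 205 CPM), Ccr2 (194, 233 and 525 CPM) and F13a1 (48, 59.3 and 68.4 CPM) rose in this order too. Ear2, a ribonuclease gene listed with these cells, had the opposite order at 709, 494 and 399 CPM. Fcgr4 was highest just inside the rule at 139, 198 and 148 CPM, as was the neutrophil gene S100a8 at 1636, 6598 and 2292 CPM. H2-Ab1 was lowest there at 997, 928.5 and 2623 CPM. The criteria other than the panel mattered as well. Of 1015 cells with at least 3 panel UMIs, 754 carried an endothelial UMI and 792 had no Csf1r UMI.

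**Figure D1:**
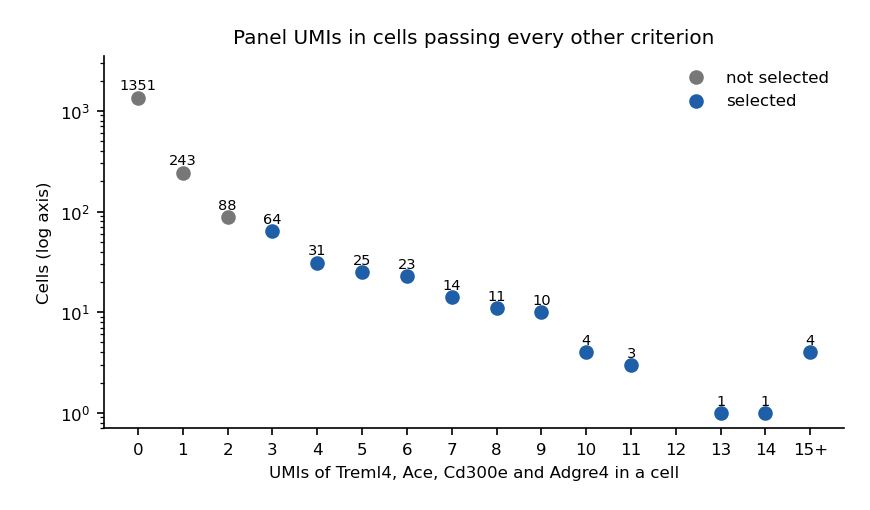
Number of cells (y axis, log scale) by summed UMIs of Treml4, Ace, Cd300e and Adgre4 in a cell (x axis) for the 1873 cells that met every other criterion; the last point pools cells with 15 UMIs or more. The 191 selected cells (blue) form the tail from 3 UMIs upward, of which 64 sit at the threshold itself, next to 88 unselected cells (grey) with 2 UMIs.

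Transcripts of other cell types were present in a part of the members. The neutrophil genes S100a8, S100a9 and Retnlg, which encode a calcium-binding alarmin pair and a resistin-like protein, were absent from 102 members, whereas 65 members (34.0%, 27.3 to 41.2%) carried at least 10 of their UMIs. The share with at least 10 was 10.1% in classical monocytes, 0.844% in C1q-high macrophages, 0.727% in 1789 B cells with a median of 1466 UMIs and 1.49% in 2410 T cells with a median of 1817 UMIs. After every cell was thinned to 1000 UMIs, 32.4% of 188 non-classical monocytes, 8.47% of classical monocytes, 0.634% of C1q-high macrophages, 0.826% of B cells and 1.56% of T cells kept at least 5 of these UMIs. The excess over the other cell types was therefore also seen at equal depth. Summed over 8 neutrophil markers, none of which was at 0 in the members, the level was 16756 CPM in non-classical and 5037 CPM in classical monocytes. The 65 cells were deeper than the other 126, with medians of 3157 and 2257 UMIs. Scrublet called 1 of the 65 a doublet, but it called 1.03% of all cells where the expected rate was set to 6%. Spn, a gene of these monocytes that the rule did not use, stood at 386 (313 to 471) CPM in the 65 cells and 417 (355 to 486) CPM in the other 126, with overlapping intervals. Other genes known from these monocytes differed in both directions, without overlap of the intervals, which leave out the spread between cells. Itgal (1090 against 846 CPM), Nr4a1 (1861 against 1447.5), Pglyrp1 (791 against 581), Klf2 (1189 against 658) and Cebpb (3607 against 2514) were higher in the 65 cells. Ear2 (374 against 537 CPM) and Gngt2 (966 against 1206 CPM) were lower in them.

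In all, 10 members held at least 3 UMIs of alveolar macrophage genes (Marco, Siglecf, Ear1, Fabp1, Atp6v0d2 and Krt79), with a median of 7222.5 UMIs per cell, and 9 held at least 3 UMIs of the plasmacytoid genes Siglech, Ccr9 and Ly6d. The latter 3 genes did not mark plasmacytoid cells alone, since 36.6% of the 1789 B cells also held at least 3 of their UMIs. Siglech itself was found in 7 of the 9 members. The 10 cells had 24.9 CPM of Treml4 and 298.5 CPM of Ace, so Ace was the main panel gene in them. At least 2 UMIs of T-cell markers were seen in 0.524% of members and of NK, fibroblast, platelet, mast or basophil and erythroid markers in none (upper end of the exact interval 1.91%). B-cell, epithelial, endothelial and conventional dendritic cell markers reached 2 UMIs in 4.71%, 4.71%, 3.66% and 3.14% of members. Markers of interstitial macrophages other than C1q (Apoe, Ms4a7, Trem2, Pf4, Folr2, Cd63 and Gpnmb) were more frequent, with at least 2 UMIs in 28.8% (22.5 to 35.8%) of members, 20.1% of classical monocytes and 63.2% of C1q-high macrophages, and summed levels of 731, 339.7 and 5806 CPM. Folr2 was the 1 of these 7 at 0 in the members. With Chil3 and Mrc1 added to the 6 alveolar genes, 32 members (16.8%) and 62 classical monocytes (32.8%) held at least 3 UMIs. Whether the neutrophil, alveolar and plasmacytoid transcripts came from doublets, engulfed or free RNA or expression was not tested. The list counts against classical monocytes are therefore also given without the 82 members (42.9%) and the 23 classical monocytes (12.2%) with genes of these 3 cell types, which leaves 109 members with a median of 1995 UMIs and 166 classical monocytes with a median of 3129 UMIs. This set was defined after the data were seen and is called the stricter set. Cells with interstitial macrophage markers, Chil3 or Mrc1 alone remained in it, and their part in the results was not tested.

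**Figure D2:**
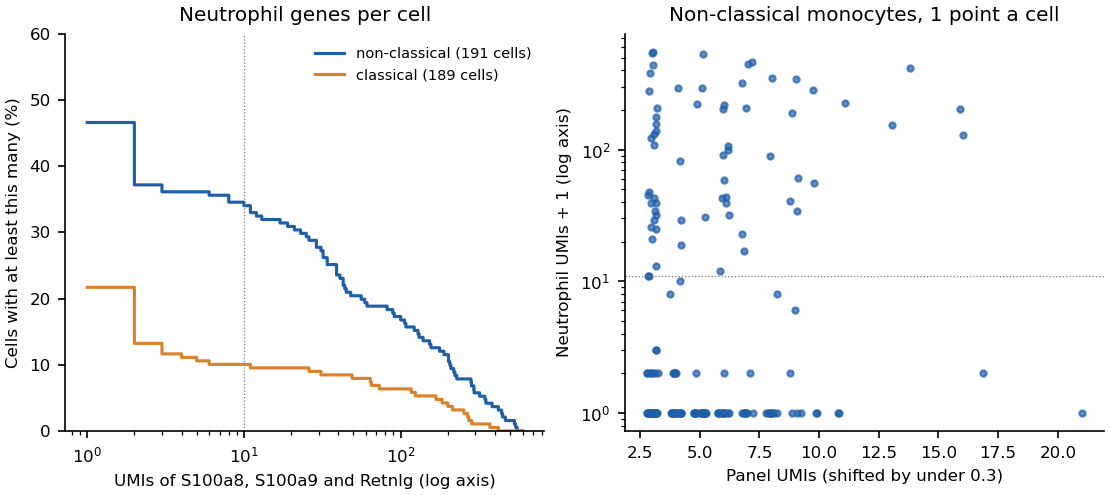
Left, share of cells (y axis, %) with at least a given number of S100a8, S100a9 and Retnlg UMIs (x axis, log scale) in 191 non-classical and 189 classical monocytes; right, these neutrophil UMIs plus 1 (y axis, log scale) against panel UMIs (x axis, points shifted slightly sideways), 1 point for each non-classical monocyte. At 10 UMIs (dotted lines) 34.0% of non-classical and 10.1% of classical monocytes lie above. The right panel starts at 3 panel UMIs because the rule required them, and cells with many neutrophil UMIs occur there and at higher panel counts.

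Genes known from non-classical monocytes but not used by the rule were higher in the members than in classical monocytes. Of 25 such genes, Apoc2 was at 0 UMIs in both groups, 24 were compared, 24 lay above 0, and 17 were higher by more than 2-fold, where 7.12% of all 5265 genes compared were. None of the 24 was lower by more than 2-fold, where 2.22% of all genes were. The median of the list was 1.85 on the log2 scale, and 2.35 in the stricter set, where 20 of 24 were past 2-fold higher against 9.23% of all genes. Spn stood at 404 (357 to 457) CPM in non-classical and 70 (51.6 to 92.8) CPM in classical monocytes. Itgal was at 942 (868 to 1019.8) against 139.9 (113 to 171) CPM. The intervals of the 2 groups did not overlap for either gene. In cells thinned to 1000 UMIs a Spn transcript was found in 37.2% of non-classical and 5.82% of classical monocytes and an Itgal transcript in 57.4% and 12.2% (unthinned 61.8% and 88.0% of the non-classical cells). These genes for surface markers outside the rule thus went with the label of the members.

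Among the other genes of this list, Fcgr4, which encodes the Fc receptor for IgG2 subclasses, had 153 UMIs in the members and 11 in classical monocytes, that is 239 (202 to 279.9) and 16 (8 to 28.7) CPM. Nr4a1, the receptor required for these cells, was high in both kinds of monocyte, at 1609.9 (1513 to 1711) and 882 (813 to 955) CPM, a log2 difference of 0.86 that did not pass 2-fold. Pou2f2, an octamer-binding factor, was at 753 against 209.9 CPM and Gngt2, a G-protein gamma subunit, at 1112 against 222 CPM. Smaller differences were found for Cx3cr1 (331 against 203 CPM), for Klf2, a factor of quiescent and flow-exposed cells (867 against 509 CPM), and for Cebpb, which these cells need for survival (2943 against 2119.6 CPM). These 3 genes, with Nr4a1, Lst1, Clec4a1 and Clec4a3, made up the 7 that stayed within 2-fold. Ear2, Eno3, an enolase, Pglyrp1, which binds bacterial peptidoglycan, Stap1, Ceacam1, an adhesion molecule with inhibitory tails, Dusp16, Tgm2 and Hes1, a Notch target, were each past 2-fold, as were Itgax, Cd36, Cd274 and Fabp4, whose values follow.

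**Figure D3:**
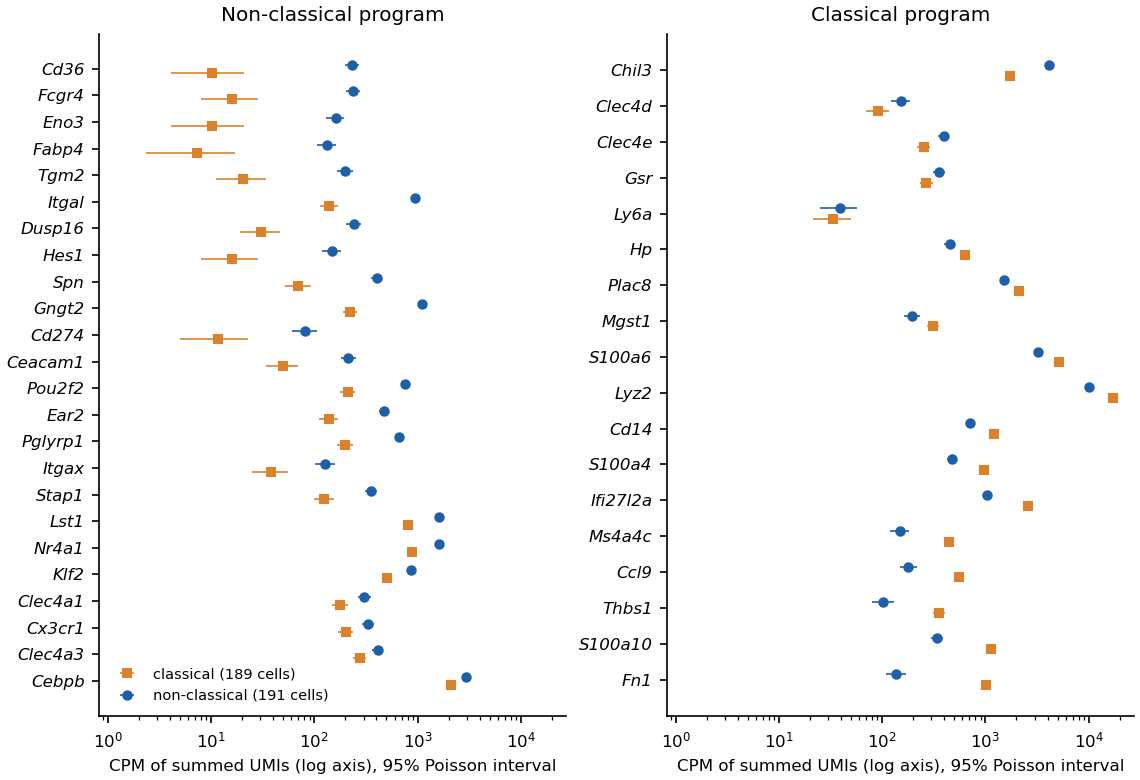
CPM of summed UMIs (x axis, log scale) with exact 95% Poisson intervals for 24 genes known from non-classical monocytes (left) and 18 known from classical monocytes (right), in 191 non-classical (blue circles) and 189 classical monocytes (orange squares). Every gene on the left sits higher in non-classical monocytes, whereas genes on the right range from Chil3 at 4102 against 1716 CPM to Fn1 at 137 against 1006 CPM.

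Genes known from classical monocytes were less uniformly placed. Of the 19 compared outside the rule, 6 were lower by more than 2-fold in the members (Fn1, S100a10, Thbs1, Ccl9, Ms4a4c and Ifi27l2a), 1 was higher, and the median was -0.67, or -0.97 in the stricter set, where 9 of 19 were past 2-fold lower against 3.49% of all genes. Fn1, which encodes fibronectin, stood at 137 (110.2 to 169) CPM against 1006 (932 to 1084) CPM. Thbs1, the matrix protein thrombospondin, was at 103 (79.7 to 131) against 357 (314 to 405) CPM. S100a10, the partner of annexin A2, was at 339 against 1136 CPM, and Vcan, the proteoglycan versican, had 0 UMIs in the members, which allows up to 4.68 CPM, against 10 UMIs in classical monocytes. Lyz2, the lysozyme of myeloid cells, remained abundant in both at 10167 and 17033 CPM. Chil3, which encodes a chitinase-like protein of alveolar macrophages as well as classical monocytes, was the 1 gene past 2-fold higher (4102 against 1716 CPM), yet 15.5% of its UMIs came from 1 cell and the log2 difference turned to -2.99 when at least 5 panel UMIs were required. The genes that selected the classical monocytes stood in the members at 98.4 (Ly6c2), 373 (Ccr2) and 60.9 CPM (F13a1), and 40 members (20.9%) also carried at least 3 UMIs of these genes.

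Adhesion genes and receptors that guide movement were in part higher in the members. The list counts that follow are against classical monocytes and are to be read beside the 7.12% of all genes that were past 2-fold higher and the 2.22% lower, or 9.23% and 3.49% in the stricter set. Of 14 adhesion genes compared, 6 were past 2-fold higher, 0 were lower and 8 stayed within 2-fold, with a median of 0.88. Itgb2, the chain that pairs with Itgal to form LFA-1, stood at 746 (681 to 816) CPM against 319 (278 to 364) CPM. Itga4, a chain of the VCAM-1 receptor, was at 561 (504 to 622) against 252 (216 to 293) CPM, and Itgax (CD11c) at 128 against 37.9 CPM. Itgam (CD11b), Cd44 and Selplg, the ligand of P-selectin, stayed within 2-fold. In the stricter set 8 of 14 were past 2-fold higher and 1 was lower.

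Of 10 chemoattractant receptors compared, 7 were past 2-fold higher and 1 lower, with a median of 1.32 (in the stricter set 6 of 9, with a median of 1.52). S1pr5, the sphingosine-1-phosphate receptor known for letting these cells leave the bone marrow, had 40 UMIs in the members and 1 in classical monocytes, that is 62.5 (44.6 to 85.1) and 1.46 (0.0369 to 8.12) CPM. Cxcr4, which retains cells in the marrow, was at 201 (168 to 239) against 62.7 (45.4 to 84.4) CPM. C5ar1 for complement C5a (149.9 against 55.4 CPM) and the formyl-peptide receptors Fpr1 (73.4 against 19 CPM) and Fpr2 (136 against 59.8 CPM) stood higher in the members. The call of Cxcr2, the main chemokine receptor of neutrophils, moved with the neutrophil genes, since its 259 CPM became 22.1 CPM in the stricter set and the log2 difference went from 1.55 to 0.24. Ccr1 behaved likewise, from 0.08 to -1.47, whereas S1pr5 (2.83), Cxcr4 (1.61), C5ar1 (1.52), Fpr1 (2.01) and Fpr2 (1.60) stayed past 2-fold higher.

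More chemokine genes were past 2-fold lower than higher in the members. Of 10 compared, 4 were past 2-fold lower (Ccl2, Ccl5, Ccl9 and Ccl17) and 2 higher (Ccl6 and Cxcl1), with a median of -0.56. Ccl2, the ligand of Ccr2, was at 53.1 (36.8 to 74.2) CPM against 150.2 (123 to 182) CPM. Ccl9 was at 179.6 (148 to 216) against 557 (502 to 616) CPM. Ccl5 had 1 UMI against 50, and Cxcl9 and Ccl24 had none in the members against 21 and 22 UMIs. Few classical monocytes gave these counts for Ccl5 (9 cells, 32% of the UMIs from 1) and Ccl24 (5 cells, 36.4% from 1). Both genes on the higher side also depended on few cells. A single cell gave 67.9% of the Cxcl1 UMIs and 24.4% of the Ccl6 UMIs, and Ccl6 stood at 0.01 on the log2 scale in the stricter set, in which 0 of 10 were past 2-fold higher and 6 lower. Ccl17, a chemokine of dendritic cells, was at 6.25 against 245 CPM, but its UMIs in classical monocytes came from 8 cells, 43.5% of them from 1. It had 0 UMIs in the 58 classical monocytes with at least 3 UMIs of Ly6c2 alone, so that against these cells, with 4 UMIs in the members, no difference was detectable. Ccl24 likewise had 0 UMIs in these 58 cells.

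MHC class II genes also depended on which classical monocytes were used. Of 8 class II genes compared, 7 were past 2-fold lower in the members, with a median of -1.36, and 7 of 9 in the stricter set, with a median of -1.09. H2-Ab1 stood at 1157 (1075 to 1243) CPM in non-classical and 3061 (2932 to 3195) CPM in classical monocytes. Cd74, the invariant chain, was at 3936 (3784 to 4093) against 7992 (7781 to 8206) CPM. Ciita, the master regulator of these genes, was at 21.9 against 86 CPM, while Ctss, the protease that trims the invariant chain, did not differ by 2-fold (1243 against 1278 CPM). Against the 58 Ly6c2-selected classical monocytes, which are a subset of the 189 and held 218647 UMIs, none of 8 passed 2-fold in either direction and the median was 0.13. In those cells H2-Ab1 was at 915 CPM and Cd74 at 3165 CPM, below the members, and H2-DMa at 274 CPM, above the 159 CPM of the members. Of all 5272 genes compared with this smaller group, 11.3% were past 2-fold higher and 2.92% lower, and the non-classical list kept 17 of 24 past 2-fold higher with a median of 2.21. C1q-high macrophages stood above all monocytes, with H2-Ab1 at 9560.3 CPM. The 25 members with a Ly6c2 UMI had H2-Ab1 at 1981 CPM, against 949.7 CPM in the other 166. MHC class I genes stayed within 2-fold in all 10 compared, also in the stricter set, with a median of 0.38, and B2m, their common light chain, was at 3003 against 1814 CPM.

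**Figure D4:**
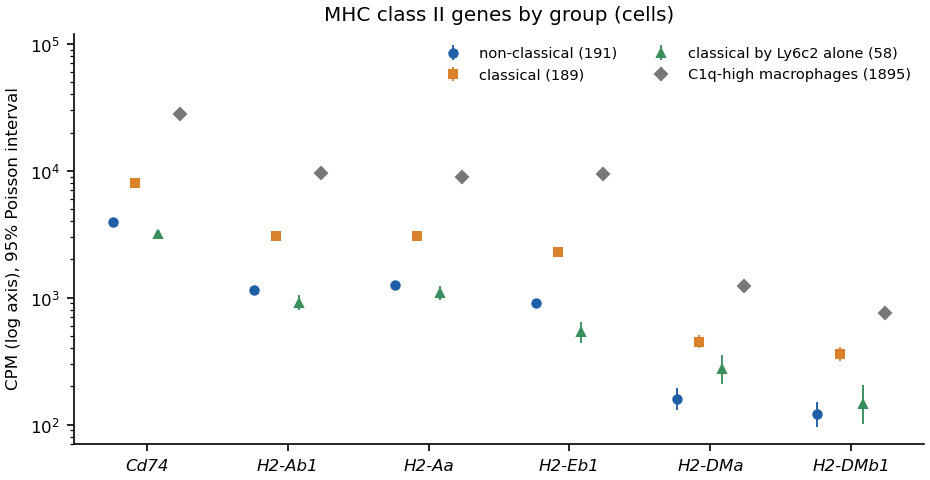
CPM (y axis, log scale) with exact 95% Poisson intervals of 6 MHC class II genes in 191 non-classical monocytes (blue circles), 189 classical monocytes (orange squares), the 58 classical monocytes selected by Ly6c2 alone (green triangles) and 1895 C1q-high macrophages (grey diamonds). Non-classical monocytes lie below the classical monocytes for each gene, for example at 1157 against 3061 CPM for H2-Ab1, but above the Ly6c2-selected ones for Cd74, H2-Ab1, H2-Aa and H2-Eb1.

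Transcription factors divided by gene. Of 31 compared, 4 were past 2-fold higher (Pou2f2, Pparg, Tcf7l2 and Bcl6), 3 were lower (Batf3 and Cebpa among them), and the median of 0.23 was close to that of all genes (5 higher and 3 lower of 33 in the stricter set). Tcf7l2, a nuclear effector of Wnt signals, stood at 179.6 (148 to 216) CPM against 59.8 (42.9 to 81.1) CPM. Pparg, a lipid-sensing receptor, had 31 UMIs against 2 (48.4 and 2.92 CPM). Its log2 difference ran from 0.895 to 3.66 under the processing alternatives given at the end, so it was not past 2-fold in all of them. Bcl6, a repressor, was at 57.8 against 21.9 CPM, and at 0.59 on the log2 scale in the stricter set, within 2-fold. On the lower side, Batf3, needed by cross-presenting dendritic cells, had 4 UMIs against 38, and Cebpa, which drives early myeloid commitment, was at 26.5 against 64.1 CPM. Spi1 (PU.1), whose letters were searched above, was at 639 and 380.5 CPM.

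Fc and cytokine receptors varied by member. Of 6 Fc receptor genes, Fcgr4 was past 2-fold higher, while Fcgr1, the high-affinity IgG receptor (20.3 against 52.5 CPM), and Fcgr2b, the inhibitory one (155 against 373 CPM), were past 2-fold lower. In the stricter set Fcgr4 and Fcgr2b alone were past 2-fold. Against the Ly6c2-selected classical monocytes 1 of 6 was past 2-fold higher and 1 lower. Fcer1g, the signaling chain shared by the activating receptors, was at 2775 and 2305 CPM. Of 17 cytokine receptors, 5 were past 2-fold higher and 0 lower, with a median of 0.59 (6 of 17 in the stricter set). Tgfbr1, at 153 (124 to 186) against 27.7 (16.7 to 43.3) CPM, and Tgfbr2, at 139 (112 to 171) against 43.7 (29.5 to 62.4) CPM, together receive TGF-beta and were both past 2-fold higher. So was Tnfrsf1b, the TNF receptor TNFR2, at 368 (323 to 419) against 114 (89.9 to 142) CPM. Csf3r, the G-CSF receptor of neutrophils, stood at 431 CPM in all members and 158 CPM in the stricter set, and Il1r2, a decoy receptor for interleukin-1, was past 2-fold only before cells with genes of other types were left out (1.40 and 0.82).

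Receptors with inhibitory or costimulatory roles and survival genes were higher in part. Of 15 receptors and ligands in the former list, 7 were past 2-fold higher and 0 lower, with a median of 0.64. Lilra5, an activating leukocyte immunoglobulin-like receptor, was at 212 (178 to 251) CPM against 11.7 (5.03 to 23) CPM. Lair1, which binds collagen, was at 166 (136 to 200.2) against 35 (22.4 to 52.1) CPM, and Pilra, an inhibitory receptor for sialylated ligands, at 205 (171 to 243) against 52.5 (36.8 to 72.7) CPM. Cd274, the checkpoint ligand PD-L1, had 52 UMIs against 8 (81.2 and 11.7 CPM), and Havcr2 (TIM-3) stood at 60.9 against 17.5 CPM. The costimulatory ligands Cd80 and Cd86 stayed within 2-fold, as did Sirpa, the receptor for CD47. Of 12 survival genes, 4 were past 2-fold higher and none lower. Bcl2, which holds mitochondrial cell death in check, was at 99.9 (77 to 128) against 29.2 (17.8 to 45) CPM. The other 3 were Bcl2a1a, Bcl2a1b and Bcl2a1d, near-identical copies whose reads the counting may not separate, and Bcl2a1b was at 299.8 against 78.7 CPM. In the stricter set the counts were 7 of 16 for the receptors and 4 of 12 for the survival genes.

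Genes of lipid handling were past 2-fold higher in 7 of 12 compared and lower in 0, with a median of 1.30, and higher in 8 of 12 in the stricter set with a median of 1.08. Cd36, a scavenger receptor and fatty acid importer, was at 233 (197 to 273) CPM against 10.2 (4.1 to 21) CPM, the largest upward log2 difference under the naming rule. Fabp4, a fatty acid binding protein, was at 133 (106 to 164) against 7.29 (2.37 to 17) CPM. Plin2, which coats lipid droplets, was at 475 against 181 CPM, Abcg1, a cholesterol exporter, at 158 against 39.4 CPM, and Lipa, the lysosomal lipase, at 169 against 49.6 CPM. Several of these genes are also expressed by alveolar macrophages. The values of Cd36 (243 CPM) and Fabp4 (143 CPM) were as high in members of the stricter set, whereas Fabp5 changed from 0.61 to -0.93 on the log2 scale. Of 8 scavenger and efferocytosis genes compared, 3 were past 2-fold higher (Cd36, Mertk and Scarb2). Mertk, which recognizes dying cells, had 22 UMIs in the members, 22.7% of them from 1 cell, and 3.68 CPM remained in the stricter set, in which Cd36 was the 1 gene of 7 past 2-fold higher.

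**Figure D5:**
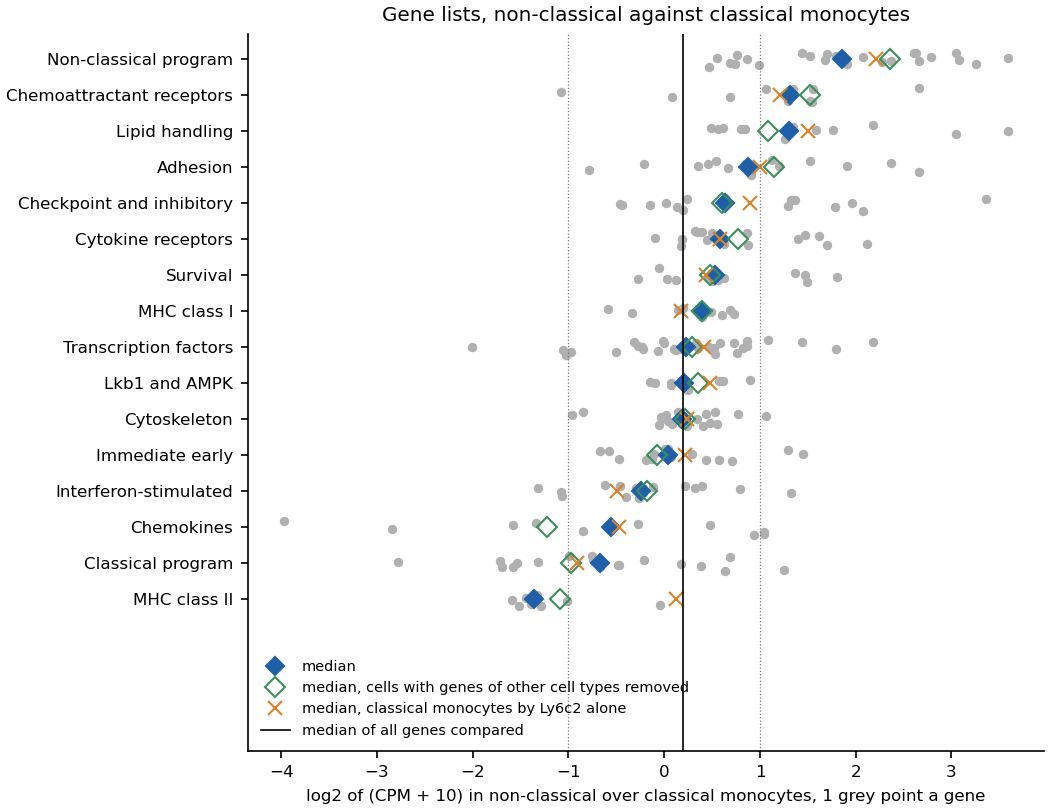
Log2 ratio of (CPM + 10) in non-classical over classical monocytes (x axis) for the genes of 16 lists (y axis), 1 grey point a gene; blue diamonds mark the list medians, open green diamonds the medians without cells carrying genes of neutrophils, alveolar macrophages or plasmacytoid cells, orange crosses the medians against classical monocytes selected by Ly6c2 alone, and the vertical line the median of all genes compared, 0.20. Medians run from 1.85 for the non-classical list to -1.36 for MHC class II, and the latter is at 0.13 against the Ly6c2-selected cells.

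Inflammatory and housekeeping programs differed less. Of 16 interferon-stimulated genes, 3 were past 2-fold lower (Ifi27l2a, Ifi204 and Oas1a) and 1 higher, Ifitm1, whose log2 difference went from 1.32 to -0.51 in the stricter set, where 2 of 16 were lower and 0 higher. Among 13 cytokines and secreted effectors, Il1b stood at 4297 (4138 to 4461) CPM against 2242 (2131 to 2357) CPM and Tnf at 67.1 against 29.2 CPM, both within 2-fold, and Vegfa, the vascular growth factor, was lower with 7 UMIs against 32. The Il1b level moved with the neutrophil genes, at 6625 (6311 to 6951) CPM in the 65 members with at least 10 neutrophil UMIs, 2792 (2629 to 2963) CPM in the other 126 and 2443 (2262 to 2635) CPM in the 102 with none. Mmp9, a gelatinase that neutrophils store, was at 199.9 CPM in all members and 18.4 CPM in the stricter set. This list had 2 genes higher and 2 lower, and 2 higher and 4 lower of 11 in the stricter set. Nos2 was at 0 UMIs in the members and Arg1 at 1. Of 10 pattern-recognition genes, Nod1 (45.3 against 13.1 CPM) and Nod2 (31.2 against 10.2 CPM) were past 2-fold higher and Cd14 stood at 707 against 1204 CPM; the stricter set added Tlr7. Of 15 immediate early genes, which dissociation can induce, Egr1 (536 against 189.5 CPM) and Hspa1b were past 2-fold higher and the median was 0.04 (the same count in the stricter set), with Fos at 1702 against 2359 CPM. Of 19 cytoskeletal genes 1, Msn (moesin), was past 2-fold higher with 675 UMIs against 343, and in the stricter set 1 was higher and 1 lower. Cell-cycle genes were near the floor. Mki67, a marker of dividing cells, had 0 UMIs in the members and 13 in classical monocytes, and 5 of the 12 genes were at 0. Few classical monocytes can give such counts, since the 8 UMIs of Birc5, another gene of dividing cells, came from 2 of them, 87.5% from 1.

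By the naming rule, which ranked genes at a mean of at least 50 CPM, the 15 genes with the largest differences upward were Cd36, Lilra5, Fcgr4, Eno3, Fabp4, Cd300ld, Tgm2, Gpnmb, Slc12a2, Itgal, Dusp16, Hes1, G0s2, Cyfip2 and Spn, from 3.59 down to 2.37 on the log2 scale. Of these, 5 were in none of the lists of monocyte genes or receptors above. Cd300ld, an activating receptor encoded in the same gene family as the panel gene Cd300e, was at 309 against 35 CPM, and was found in 54.5% of members. Slc12a2, a sodium, potassium and chloride cotransporter, was at 119 against 10.2 CPM, and Cyfip2, a part of the WAVE actin complex, at 126 against 16 CPM. G0s2, an inhibitor of fat breakdown that neutrophils also express, was at 386 CPM in all members and 107 CPM in the stricter set. Gpnmb, a lysosomal glycoprotein of lipid-laden macrophages, was found in 6.28% of members and had 35.5% of its UMIs in 1 cell, and its difference turned to -1.38 when at least 5 panel UMIs were required or Ace was left out of the panel. All 15 stayed past 2-fold higher in the stricter set.

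On the other side, the 15 genes with the largest differences downward were Igkc, Ighg2c, Igkv3-1, Ccl17, Mmp12, Fn1, Mgl2, Tmem176b, Tmem176a, Gm1673, Olfm1, Wfdc17, Crip1, S100a10 and Hist1h2ap. The 3 immunoglobulin genes had 98.7 to 100% of their classical-monocyte UMIs in 1 cell and so describe that cell. Hist1h2ap had 69.4% of its UMIs in 1 classical monocyte. Ccl17, Mmp12 and Mgl2, genes of dendritic cells and tissue macrophages, were at 0 UMIs in the 58 Ly6c2-selected classical monocytes, against 4, 1 and 12 UMIs in the members, so the lower level of the members was not seen against these cells and no direction can be read there. The other 8 kept the lower side against both definitions of classical monocytes. Tmem176b and Tmem176a, a pair of adjacent ion channel genes of endosomes, were at 31.2 against 240.5 CPM and 34.4 against 219 CPM. Crip1, a small LIM-domain protein gene, was at 1925 against 6636 CPM, and Wfdc17, a secreted antiprotease-like protein of myeloid cells, at 164 against 609 CPM.

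Compared with all 19701 other cells, 19 of 24 genes of the non-classical list were past 2-fold higher and 0 lower, with a median of 2.27, where 8.89% of all 5679 genes compared were higher and 5.49% lower. Genes with the largest differences were Lst1, Ifitm6, Clec4a1, Cd300ld, Eno3, Ceacam1, Pglyrp1, Pou2f2, Zfyve9, Plac8, Rap1gap2, Itgal, Krt80, Gm21188 and Spn, from 3.56 to 2.79 on the log2 scale. Lst1, a leukocyte membrane adaptor, stood at 1614 CPM against 127 CPM. Ceacam1 was at 214 against 14.1 CPM, and Krt80, a keratin gene, at 247 against 24.5 CPM with UMIs in 40.8% of members. Some of these marked monocytes of both kinds. Ifitm6, a membrane protein of the interferon-induced family, was at 640.2 CPM in the members and 771 CPM in classical monocytes, and Plac8 was at 1516 and 2128 CPM. Genes of the classical list were likewise more often higher (8 of 19) than lower (2) against all other cells. Interferon-stimulated genes were past 2-fold higher in 8 of 15 with a median of 1.19, and MHC class II genes were past 2-fold lower in 7 of 9 with a median of -1.24.

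The members were not uniform. The 25 cells (13.1%) with a Ly6c2 UMI had a median of 4971 UMIs, against 2435.5 in the 166 without, and held Spn at 225 CPM against 449.5, Cd300e at 69.9 against 250.1 and Nr4a1 at 1616 against 1608 CPM. Their Siglech level was 381 CPM against 13.7 CPM, so part of this small group carried a plasmacytoid gene. The 40 members with at least 3 UMIs of the classical genes had Itgal at 802 CPM against 1002 CPM in the other 151 and Ear2 at 257 against 567 CPM, while Cx3cr1 was similar at 334 and 329.6 CPM. The 16 cells with Ace as the only panel gene stood lower than either of these sets for 3 genes outside the rule, with Spn at 101 CPM, Pou2f2 at 111 CPM and Cx3cr1 at 30.2 CPM.

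Lkb1 itself was barely sampled. Stk11 had 21 UMIs in the members and 21 in classical monocytes, at 32.8 (20.3 to 50.1) and 30.6 (19 to 46.8) CPM, against 21.2 CPM in all other cells, and with unknown shares of Restored and Non-Restored cells this says nothing of either group. Of 9 genes of Lkb1 and AMPK-family signaling compared, none passed 2-fold in all members or in the stricter set, with a median of 0.20 in all members. Against the Ly6c2-selected classical monocytes 2 of 9 were past 2-fold higher and 0 lower, with a median of 0.475, where 11.3% of all genes were higher. Sik1, a salt-inducible kinase activated by Lkb1, was at 87.4 against 42.3 CPM. The TdTomato reporter stood at 387 (340.5 to 439) CPM in the members, 199.7 (168 to 236) CPM in classical monocytes and 1139 CPM in all other cells. A TdTomato UMI was found in 24.1% of members, 26.5% of classical monocytes, 24.2% of T cells and 15.3% of B cells, so the share in monocytes was close to that in T cells, which had a lower median depth of 1817 UMIs. The summed level was higher in all members than the 218 CPM of T cells. In the 109 members of the stricter set it was 195 (146 to 255) CPM, not above T cells, and 14.7% of them held a TdTomato UMI. At least 10 TdTomato UMIs were seen in 12 members (6.28%), 2.12% of classical monocytes and 0.747% of T cells. The 16 members with Ace as the only panel gene stood at 1440.3 CPM of TdTomato, the overlapping 10 with alveolar macrophage genes at 1791 CPM and the 126 with under 10 neutrophil UMIs at 542.5 CPM, against 147 CPM in the 65 with more. GFP, which the trap encodes, had 0 UMIs in the members, which allows up to 4.68 CPM.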

How the data were processed

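Single cells of tumors from 4 mice (2 Restored, 2 Non-Restored) were measured by droplet single-cell RNA-seq with 3′ chemistry. The authors deposited 1 matrix of raw UMI counts, made with Cell Ranger on mm10 per the submitters' processing notes, with the TdTomato and GFP reporters among its 31055 features. The matrix held 20351 cells and 58624795 UMIs. The mitochondrial limit of 13.4% was the 98th percentile over 13 genes in cells with at least 200 genes, and 19892 cells passed. Cells were not assigned to mice and no test was run. Groups were set on raw UMIs as stated in the report, counts were summed per group, and exact Poisson and Clopper-Pearson 95% intervals were computed with scipy 1.17.1 (Python 3.11.15, numpy 2.4.6, pandas 2.3.3). Molecule counts of cells pooled in 1 matrix are not replicates, and 3 UMIs were taken as the limit that a count of 0 allows. Genes used by a rule were left out of the comparisons. Named genes were the 15 with the largest log2 difference in each direction at a mean of at least 50 CPM (2785 eligible genes against classical monocytes and 2913 against all other cells). For shares of cells, each cell was thinned to 1000 UMIs with a fixed seed, and shallower cells (3 non-classical and 0 classical monocytes) were left out. Doublets were called with Scrublet in scanpy 1.11.5 on the pooled matrix, with an expected rate of 6%, and kept in the main values. It marked 210 of 20299 cells (1.03%), 1 of them a non-classical monocyte. The scripts were tested on simulated data. The members and gene lists were chosen with earlier results of these data known, so they are no independent support. Some genes of the lists and an allele of the mice are counted or carried but not reported here by name.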

Additional observations from a re-analysis of the deposited data

How the results depend on the processing

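The values were recomputed under 23 alternatives. No paired analysis was possible because the cells carry no mouse and no result comes from a test. Leaving out a mouse was not run for the same reason. Of 201 recomputed summary values, 151 stayed within their limit, 49 moved and 1 reversed, and of the single-gene values 2804 stayed, 266 moved and 12 reversed. The share of non-classical monocytes (0.960%) was 1.12% with a minimum of 500 genes, 1.40% with at least 2 panel UMIs, 0.483% with at least 5, 0.749% without Treml4, 0.533% without Ace and 0.799% without Adgre4 in the panel. It was 0.473% after removal of cells with markers of other lineages, 0.633% after removal of neutrophil-gene cells and 0.548% in the stricter set. Genes past 2-fold higher than in classical monocytes (375) numbered 563 with 5 panel UMIs, 586 and 109 with pseudocounts of 1 and 50 CPM, 105 at a mean of 100 CPM or more, 808 with thinned cells and 598 against Ly6c2-selected cells. Those lower (117) numbered 202 with 5 panel UMIs, 43 with a pseudocount of 50, 43 at 100 CPM, 319 thinned and 180 in the stricter set. Against all other cells, those higher (505) numbered 323 with 2 panel UMIs, 214 with a pseudocount of 50 and 237 at 100 CPM, and those lower (312) numbered 495 with 5 panel UMIs, 130 with a pseudocount of 50, 707 with no minimum and 58 at 100 CPM. The median of the non-classical list (1.85) was 2.31 with 5 panel UMIs, 2.25 without Ace, 2.27 without other lineages, 1.49 with a pseudocount of 50, 2.21 against Ly6c2-selected cells and 2.35 in the stricter set. That of the classical list (-0.67) was -1.30 without other lineages and -0.97 in the stricter set. That of MHC class II (-1.36) was -1.67 with 5 panel UMIs, -1.16 without Treml4, -1.67 without Ace, -1.55 without Scrublet calls, -1.09 without other lineages, -1.15 with at least 5 classical UMIs, 0.13 against Ly6c2-selected cells, -1.09 in the stricter set and -1.65 without members carrying Siglech or Flt3. The share of cells with Spn (37.2% at 1000 UMIs) was 22.0% at 500, 45.7% at 2000 and 61.8% unthinned, and with Nr4a1 (76.1%) 54.5%, 89.9% and 93.7%. Log2 differences of single genes reversed for Chil3 (-2.99) and Gpnmb (-1.38) with 5 panel UMIs and for both without Ace (-1.80 and -1.38). Igkc reversed without other lineages (0.56). Against Ly6c2-selected cells, Cd74 (0.31), H2-Aa (0.21), H2-Ab1 (0.34) and H2-Eb1 (0.75) reversed. The sign also turned for Ccl17 (0.70), Mgl2 (1.52) and Mmp12 (0.21), but these had 0 UMIs in that group and 4, 12 and 1 in the members, so any UMI gives a positive value and no reversal is shown. The cause was not tested. The neutrophil-gene, stricter-set and Siglech or Flt3 removals, and following the MHC class II and lipid lists, were chosen after seeing the data. A gene below about 20 CPM rests on under 13 UMIs in the members, which limits what is detectable there.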
